A study of Mus musculus with 3 samples.

Results

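The genes described here encode the proteins of the mitochondrial ribosome in mouse. They were taken by name, as every protein-coding gene of the GENCODE M21 annotation whose symbol begins with Mrpl or Mrps and a number, and 78 of the 21897 protein-coding genes in the count files met that rule. No expression value entered the choice. Of the 78, 51 encode large-subunit proteins, which include Mrps30 and Mrps18a in spite of their names, and 26 encode small-subunit proteins. Mrps36, the remaining one, keeps its ribosomal name although its product is an adaptor of the oxoglutarate dehydrogenase complex. A mean of 10 or more counts per library was reached by 77 of the 78, the exception being Mrpl53.

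RNA was sequenced in bulk from the maxillary process, the facial swelling that gives rise to the upper jaw, of wnt1cre; Rosa26Dlx2/- embryos at stage E10.5. These embryos carry a Cre recombinase driven by Wnt1, which is active in the neural crest lineage, and 1 Rosa26 allele in which a stop cassette lies between a CAG promoter and Flag-tagged Dlx2, so that Dlx2 is expressed once Cre has removed that cassette. All 3 libraries had this genotype and are called replicates 1, 2 and 3. No effect of Dlx2 could be measured, because wild-type libraries were not analysed here. The dissected tissue also holds cells that Cre does not reach, such as surface epithelium and blood. The study's methods speak of independent RNA samples. Neither they nor the labels say whether these came from separate embryos or litters. The tests below therefore compare libraries with counting noise and not conditions.

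The mitochondrial ribosome translates the few proteins encoded by mitochondrial DNA, all of them subunits of the respiratory chain complexes or of ATP synthase. Its proteins are encoded in the nucleus, made in the cytoplasm and imported, while its ribosomal RNAs are transcribed inside the organelle. Many of its proteins have counterparts in bacterial ribosomes, and others were added in the mitochondrial lineage. Promoters of such nuclear genes are known for binding sites of NRF1, of the ETS-family factor GABP and of YY1.

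Before the genes themselves, the libraries have to be described, because they stood apart from one another. Counts on genes came to 36544554, 35351031 and 40057435 in replicates 1, 2 and 3. Dlx2, the targeted gene, had 9089, 7150 and 6890 counts, or 206 ± 26.7 counts per 1000000 (CPM, after TMM scaling, SD, n = 3). The maxillary mesenchyme markers (Prrx1, Prrx2, Twist1, Pdgfra, Lhx8, Alx4 and Msx1) were present in every library, at 70.1 to 629 CPM each, and their sum was 1715, 1728 and 1832 CPM. Xist stood at 671 CPM in replicate 1 and below 1 CPM in the others, and 4 Y-linked genes together stood at 0, 146 and 109 CPM. All 9 neuronal markers were highest in replicate 1 (summed 273, 24.3 and 35.9 CPM), and 6 of 7 pigment cell markers were highest in replicate 3 (6.81, 38.4 and 163 CPM). Erythroid markers summed to 2132, 3990 and 4916 CPM, and optic vesicle and forebrain markers to 25.0, 158 and 146 CPM. Muscle markers summed to 24.8, 24.5 and 63.1 CPM, endothelial markers to 218, 237 and 140, and epithelial markers to 340, 223 and 224. In bulk tissue, fewer cells of a type and less RNA per cell cannot be told apart. The part of sex and of these other cells in the results below was not tested.

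Short stretches of promoter show motifs that some of these genes carry, which the choice by name did not use. They were read from the RefSeq promoter table (GRCm38.p6), which holds 250 bases before and 50 after each start and had an entry for 69 of the 78 genes. It had none for Mrps35, Mrpl19, Mrps28, Mrpl54, Mrpl4, Mrpl38, Mrpl15, Mrpl13 and Mrps34. Capitals mark the motif of the set a sequence is shown for, in either orientation, and the sequences are written 5′ to 3′ on the strand of the gene. The first set carries the ETS core CCGGAAG (reverse complement CTTCCGG). It is shown for Mrpl34 (chr8:71464862-71464921, plus strand), whose transcript was among the most abundant, for Mrpl18 (chr17:12916299-12916341, minus strand), and for Mrpl52 (chr14:54426835-54426894, plus strand), whose libraries differed most.
Mrpl34: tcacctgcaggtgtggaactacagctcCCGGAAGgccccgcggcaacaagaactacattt
Mrpl18: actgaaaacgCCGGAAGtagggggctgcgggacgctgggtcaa
Mrpl52: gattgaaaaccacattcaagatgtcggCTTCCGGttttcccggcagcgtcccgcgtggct
The second set carries the NRF1 core GCATGCGC (reverse complement GCGCATGC), in Mrpl22 (chr11:58171604-58171663, plus strand), Mrpl10 (chr11:97041422-97041481, plus strand) and Mrpl39 (chr16:84735334-84735393, minus strand). In Mrpl39 the core was found in both orientations, overlapping itself. Mrpl22 also holds an ETS core, left in lower case, that begins at base -53.
Mrpl22: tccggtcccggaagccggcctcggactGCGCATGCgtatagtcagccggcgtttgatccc
Mrpl10: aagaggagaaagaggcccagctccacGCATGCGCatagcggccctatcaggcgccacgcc
Mrpl39: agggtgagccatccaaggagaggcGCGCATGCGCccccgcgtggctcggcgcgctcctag
The last sequence carries the YY1 core AAGATGGC (reverse complement GCCATCTT), in the small-subunit gene Mrps7 (chr11:115604147-115604176, plus strand).
Mrps7: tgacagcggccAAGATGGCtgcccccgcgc
The motif began at base -37 from the RefSeq start in Mrpl34 and at base 19 in Mrps7.

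The ETS core stood in 26 of the 69 promoters (37.7%), beside 13.4% of 16513 protein-coding promoters and 18.6% of the 10974 whose gene averaged 10 or more counts. The YY1 core stood in 12 (17.4%, beside 3.64% and 4.89%) and the NRF1 core in 8 (11.6%, beside 4.11% and 5.70%). At least 1 of these motifs was found in 38 promoters (55.1%, beside 19.2% and 26.6%). By contrast, the TATA box TATAAA was in 5 (7.25%, beside 14.3% and 8.60%). ETS and YY1 cores occurred together in 3 promoters, and ETS and NRF1 cores in 4. Over all 27025 promoters in the table the shares were 9.93% for ETS, 3.19% for YY1, 3.05% for NRF1 and 15.7% for TATA. A match describes these letters only and is no evidence of binding. Median levels with and without a motif were 15.2 and 24.4 CPM per kb for ETS, 23.8 and 19.3 for YY1, 15.6 and 21.1 for NRF1 and 10.4 and 21.5 for TATA, given as a description with no test.

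Another feature was position. In 33 of the 78 genes (42.3%) the start of another protein-coding gene on the opposite strand lay within 1000 bases, beside 10.9% of all protein-coding genes and 15.01% of those that averaged 10 or more counts. For 15 of these 33 genes the transcripts overlapped and for 18 there was a gap between the starts. Mrpl46 and Mrps11 were each other's neighbour and overlapped by 412 bases. Some of the other partners also serve mitochondria. They include Sars2, the mitochondrial seryl-tRNA synthetase, beside Mrps12, Twnk, the mitochondrial DNA helicase, beside Mrpl43, and Ndufs6 and Ndufb5, subunits of respiratory complex I, beside Mrpl36 and Mrpl47. Others have different roles, such as Tcp1, a chaperonin subunit, beside Mrpl18, and Ncapd2, a condensin subunit, beside Mrpl51. How often a partner serves mitochondria was not counted. The mitochondrial ribosomal protein genes lay on 17 chromosomes, with 11 on chromosome 11 and none on X or Y.

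**Figure D1:**
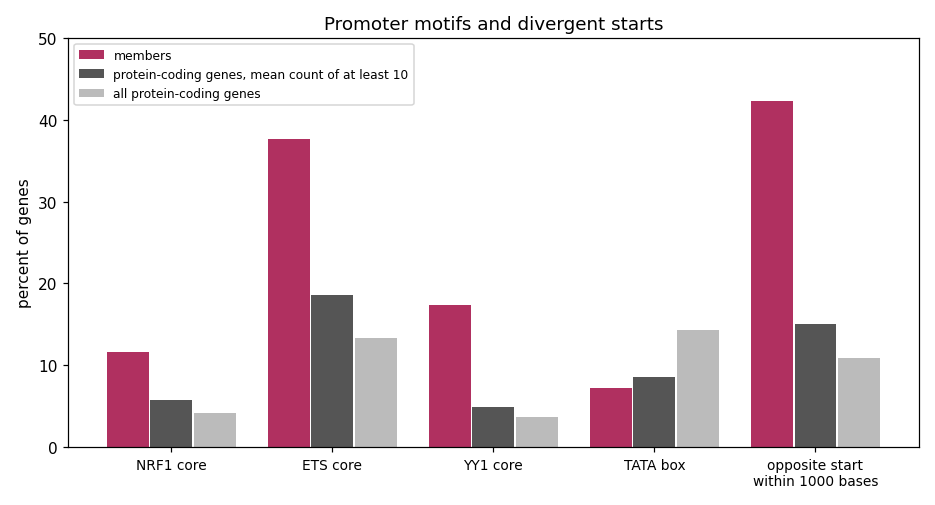
Percent of genes (vertical axis) with each motif in the promoter window or with an opposite-strand start within 1000 bases, for the mitochondrial ribosomal protein genes, for protein-coding genes averaging 10 or more counts and for all protein-coding genes. The ETS bar stands at 37.7% for the mitochondrial ribosomal protein genes and at 13.4% for all protein-coding genes.

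Levels were compared between genes as CPM per kilobase of exons (the union of all annotated exons). The median over the 78 genes was 16.8, 20.4 and 27.4 CPM per kb in replicates 1, 2 and 3, and the median of the gene means was 21.5. This was well above the median of 4.69 over protein-coding genes that averaged 10 or more counts. Of the 77 genes past that count, 74 lay above it. Their summed level was 3301, 3892 and 5989 CPM (4394 ± 1413, SD, n = 3). Large-subunit genes had a median of 24.4 CPM per kb and small-subunit genes of 13.9. Proteins with a bacterial counterpart (45 genes) and those particular to mitochondria (29 genes) had medians of 24.4 and 20.9 CPM per kb. The transcripts of the complex were not present at one level. The SD of log2 level was 1.37 over the 77 genes, beside 2.74 over all 17115 genes past the same threshold, and 48 of the 77 lay within 2-fold of their median, 10 above that range and 19 below it.

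Among large-subunit genes the highest was Mrpl12 (chr11:120484613-120489065), which encodes the stalk protein that contacts translation factors. Its level was 82.7, 111 and 227 CPM per kb in replicates 1, 2 and 3. Mrpl34 (chr8:71464959-71465747), a small protein with a bacterial counterpart, followed with 77.7, 103 and 194 CPM per kb. As measured, replicate 3 was far above the other libraries in both genes, and those libraries lay closer together. Mrpl28 (53.5, 64.9 and 150 CPM per kb), Mrpl54 (39.6, 56.3 and 118) and Mrpl2 (46.6, 57.3 and 105) came next. Mrpl2 belongs to the part of the large subunit near the peptidyl transferase centre. Mrpl12 was at 140 ± 76.5 and Mrpl34 at 125 ± 61.0 CPM per kb (SD, n = 3), and Mrpl12 was the higher of the pair in each library.

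In the small subunit the leading genes were much closer to each other. Mrps7, a protein of the subunit head, was at 37.2, 44.3 and 78.5 CPM per kb. Mrps15 averaged 52.4 ± 25.7, Mrps21 52.1 ± 25.7, Mrps12 45.2 ± 22.7 and Mrps34 42.0 ± 22.2 CPM per kb (SD, n = 3). Mrps12 belongs to the decoding site, and Mrps34 has no bacterial counterpart. Mrps7 lay above Mrps12 and Mrps34 in every library, whereas Mrps15 and Mrps21 were below it in replicates 1 and 2 and above it in replicate 3. Levels correlated between libraries across the 77 genes on the log2 scale, with r = 0.994 for replicates 1 and 2, 0.935 for 1 and 3, and 0.961 for 2 and 3, which describes genes and not replicates.

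**Figure D2:**
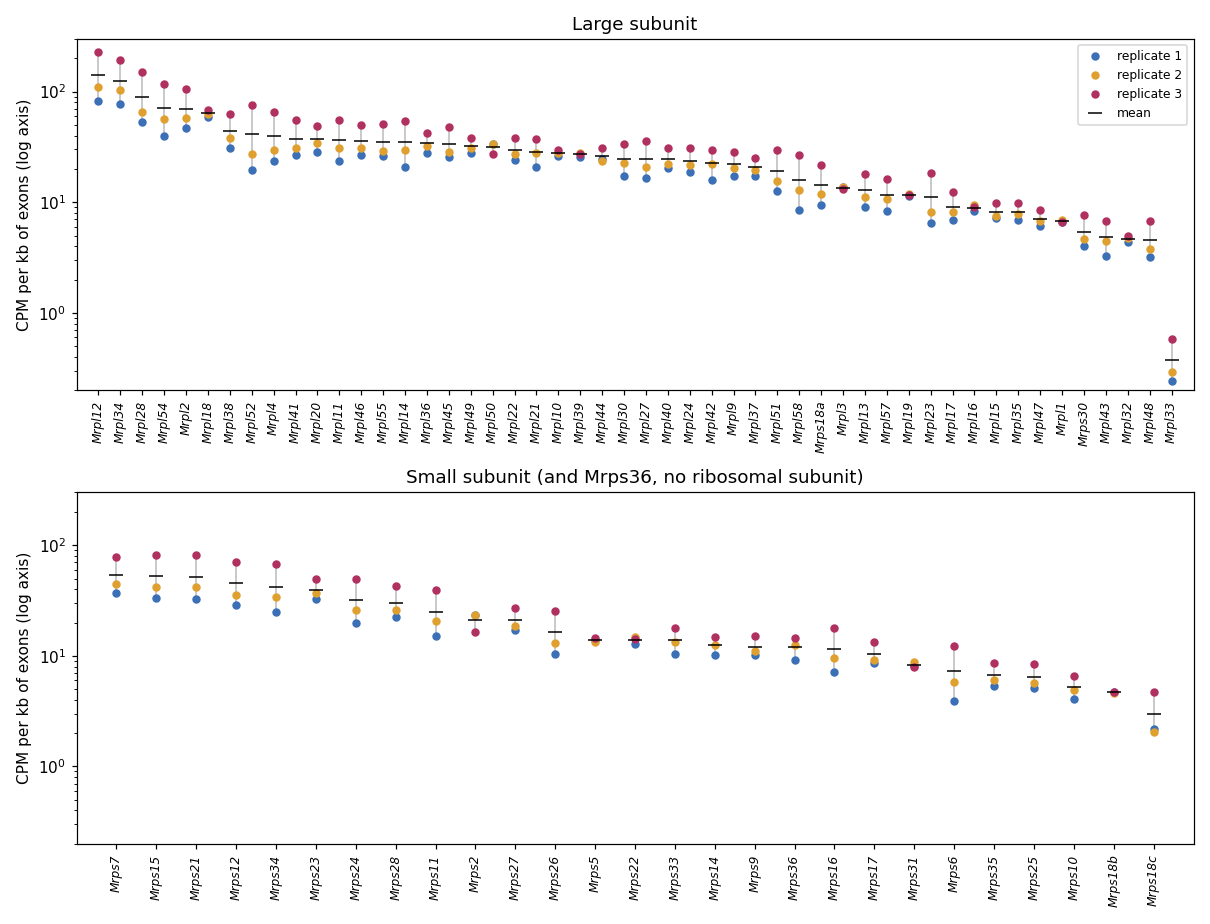
Level of each gene in CPM per kb of exons (log axis) in replicates 1, 2 and 3, with the mean as a bar, in order of the mean. Mrpl53 had 0 counts and is not drawn, Mrpl33 lies far below the others at 0.373, and replicate 3 is the highest point for 68 of the 77 genes.

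The lowest genes were of another kind, since several of them share bases with a neighbouring gene. Mrpl53 (chr6:83109040-83109939, plus strand), a large-subunit protein particular to mitochondria, had 0 counts in all 3 libraries. At these depths 3 counts correspond to 0.0777, 0.0843 and 0.0796 CPM, which is the limit that a count of 0 allows, for counting error only. All of its coding bases (100%) and 88.0% of its exonic bases lie in exons of Gm42688, an annotated protein-coding gene on the same strand, which itself had 3, 13 and 6 counts. A read that falls in exons of more than 1 gene can be set aside as ambiguous, and ambiguous reads made up 6.11, 6.10 and 6.96% of the records in the 3 libraries. Of 215 protein-coding genes that share at least 90% of their exonic bases on the same strand, 193 (89.8%) had no more than 3 counts in any library, beside 28.3% of 19126 genes that share under 10%. A count of 0 for Mrpl53 can therefore not be read as absence of its transcript.

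Mrpl33 (chr5:31596935-31664384, plus strand), the counterpart of bacterial L33, was the next lowest, with 69, 76 and 161 counts and 0.373 ± 0.184 CPM per kb (SD, n = 3). It shares 40.2% of its coding bases with Gm43809, a processed transcript at 0 counts. Its annotated exons also add up to 7326 bases, whereas its longest protein-coding transcript has 478, and per kb of that transcript its level was 5.72. Mrps18c (chr5:100798627-100804471, plus strand) had 91, 79 and 189 counts and shares 33.4% of its coding bases with Gm43511, at 42, 31 and 10 counts. Mrps6 had 230, 318 and 708 counts and shares 49.3% of its coding bases with Gm49711, which had 0 counts. These were the 4 genes with at least 30% of coding bases shared on the same strand, and 3 of them were the lowest 3 of all 78.

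Sharing with a gene on the opposite strand was more frequent. In all, 33 of the 78 genes shared some exonic bases and 18 shared at least 10% (23.1%, beside 12.7% of protein-coding genes), 13 of these on the opposite strand only. The library kit does not mark strand. Mrpl43 (chr19:45004829-45006442, minus strand) shares 72.5% of its coding bases with Twnk and had 192, 241 and 390 counts, or 4.85 CPM per kb. Mrps18b shares 45.5% with opposite-strand genes and was at 4.69 CPM per kb. Mrps30 shares 44.0% and was at 5.42. Of 54 protein-coding genes that share at least 90% of their exonic bases on the opposite strand only, 45 (83.3%) had no more than 3 counts in any library. Several of the mitochondrial ribosomal protein genes that share fewer bases were not low. Mrps34 shares 77.8% of its exonic bases on either strand and 50.9% of its coding bases, all on the opposite strand, and was still at 42.0 CPM per kb, and Mrpl24, with 40.6% of coding bases shared, and Mrps27, with 37.0%, were at 23.7 and 20.9. Per kb of the bases that no other gene shares, Mrps34 stood at 189 CPM per kb and was first of the 78 genes, while Mrps25, which shares 69.8% of its exonic bases with opposite-strand genes such as Nr2c2, moved from 6.41 to 21.2. The part of shared bases in each level was not tested.

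The remaining genes with at least 10% of exonic bases shared lay higher or share no coding bases. Mrpl12, Mrpl18, Mrps7, Mrpl46, Mrpl14, Mrps24 and Mrpl10 share 10.1 to 15.4%, and their levels lay between 28.0 and 140 CPM per kb. Mrpl19 shares 36.0% and Mrpl47 24.2% of exonic bases, none of them coding, at 11.6 and 7.11 CPM per kb.

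**Figure D3:**
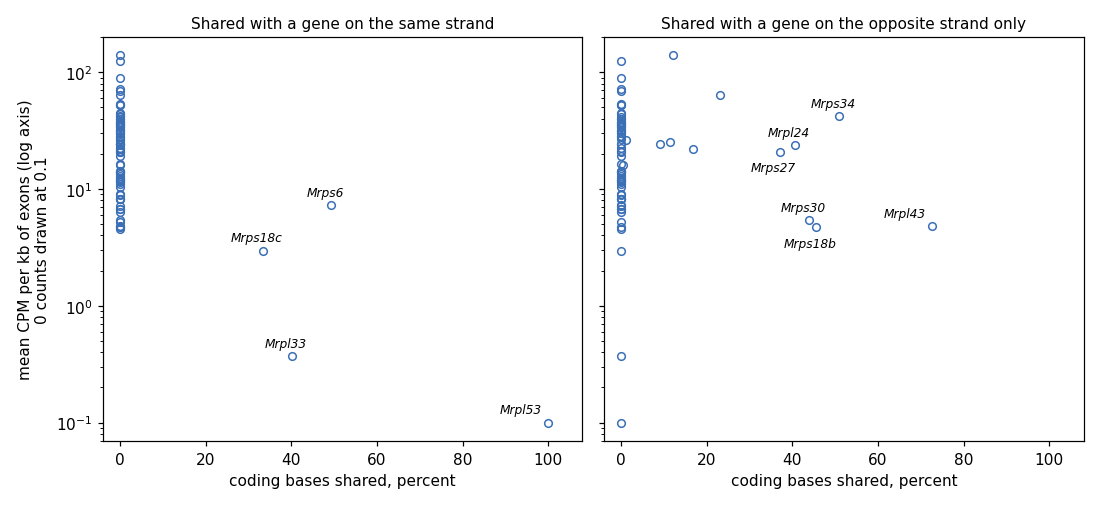
Mean level in CPM per kb of exons (log axis) against the percent of coding bases shared with another gene on the same strand (left) or on the opposite strand only (right), 1 circle per gene. Mrpl53, with 100% shared, had 0 counts and is drawn at 0.1, and Mrps34 lies at 42.0 with 50.9% shared on the opposite strand.

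Other low genes shared under 10% of their exonic bases. Mrpl48 (4.56 ± 1.91 CPM per kb), Mrpl32 (4.70 ± 0.303), Mrps10 (5.20 ± 1.27) and Mrps35 (6.72 ± 1.73) each have more than 4000 exonic bases. Across the 77 genes, level and exonic length were related with r = -0.64 on log2 scales, and they share the length term. Per kb of the longest protein-coding transcript, Mrps10 moved in rank from 71 to 36, Mrpl13 from 51 to 9 and Mrpl42 from 38 to 3, and Mrpl12 and Mrpl34 were again the highest. Mrpl42 and Mrpl13 were named after their values were seen.

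The 3 proteins related to bacterial S18 occupy different places in the mitochondrial ribosome. Mrps18a, a large-subunit protein, was highest at 9.43, 11.9 and 21.6 CPM per kb. Mrps18b and Mrps18c, both in the small subunit, were at 4.69 ± 0.0719 and 2.97 ± 1.47 (SD, n = 3). Mrps18a lay above both of the others in every library. Per kb of the longest protein-coding transcript the order was the same, at 59.7, 9.09 and 3.90. Mrps36, the gene outside the ribosome, was at 12.05 ± 2.61 CPM per kb, within the range of the ribosomal genes.

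The libraries were then compared. Counts of 72 of the 77 genes differed between the 3 libraries by more than counting noise (chi-square test on TMM-scaled library sizes, Benjamini-Hochberg adjusted p under 0.05 over all 17115 genes), where 81.5% of all genes tested did. Without replicate 3 the number was 60, where 48.8% of all genes did. The median biological coefficient of variation (edgeR, the spread between samples beyond counting error) was 0.294, beside 0.339 over all genes tested, and without replicate 3 it was 0.135.

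The direction was largely shared. The median log2 ratio of the 77 genes in 1 library against the mean of the others was -0.55 for replicate 1, -0.18 for replicate 2 and 0.73 for replicate 3. Over all genes tested the corresponding medians were 0.01, 0.03 and -0.03. The ratio was above 0 in replicate 3 for 72 of the 77 genes, where 48.7% of all genes tested were. It was above 0 in replicate 2 for 14 (53.1% of all genes tested) and in replicate 1 for 4 (50.8%). Replicate 3 was the highest library for 68 genes (43.2% of all genes tested) and replicate 1 the lowest for 68 (39.3%), while replicate 3 was the lowest for 5 (45.6%). The summed maxillary mesenchyme, erythroid and pigment cell markers had the same order of libraries. Highest in replicate 3 were 3 of 7 mesenchyme, 3 of 6 erythroid and 6 of 7 pigment markers. Summed muscle markers were also highest there and endothelial markers lowest. The part of these cells in the ratios was not tested. Of the 72 genes beyond counting noise, 70 were higher in replicate 3 and 2, Mrps2 and Mrpl50, were lower. Comparing the other libraries alone, the median log2 ratio of replicate 2 against replicate 1 was 0.24.

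The widest gap belonged to Mrpl52, a large-subunit protein particular to mitochondria, with 839, 1082 and 3188 counts. Its highest library was 3.89 times its lowest. Mrps6 followed with 3.15 times, Mrpl58, a peptidyl-tRNA hydrolase that is built into the large subunit, with 3.14, Mrpl54 with 2.99 and Mrpl23, which lies near the polypeptide exit, with 2.82. Mrpl23 had 1234, 1418 and 3399 counts. All 5 were lowest in replicate 1 and highest in replicate 3. More than 2-fold separated the highest from the lowest library in 31 of the 77 genes, where 34.5% of all genes tested did so.

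At the other end, Mrps18b had 380, 343 and 374 counts, Mrpl19 had 2399, 2283 and 2391, and Mrpl3 had 3522, 3252 and 3297. Mrpl1 had 1106, 1049 and 1063 counts. After scaling, their highest library was 1.03 to 1.04 times their lowest. Mrpl1 forms the mobile stalk beside the exit for spent transfer RNA, and Mrpl3 and Mrpl19 are large-subunit proteins with bacterial counterparts. Mrps5 followed with 1.08 times. Of these, Mrps18b, Mrpl19, Mrpl3 and Mrpl1 were within counting noise, as was Mrps31 (chi-square test, adjusted p of 0.926 for Mrps18b, 0.573 for Mrpl19, 0.156 for Mrpl3, 0.621 for Mrpl1 and 0.0575 for Mrps31). Mrps2 had 2628, 2455 and 1804 counts and Mrpl50 had 2726, 2555 and 2177, so in these genes replicate 3 was the lowest library. Mrps2, Mrpl50 and Mrps31 were named after their values were seen.

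Replicate 3 differed from the other libraries in relation to transcript length across the whole transcriptome, and most mitochondrial ribosomal protein genes are short. Their longest protein-coding transcripts had a median of 1328 bases, beside 3168 over protein-coding genes tested. Among protein-coding genes, a longest transcript of up to 1000 bases went with a median of 1.01 for this ratio in replicate 3, 1000 to 2000 bases with 0.48, 2000 to 4000 bases with -0.04 and 4000 to 8000 bases with -0.48. The mitochondrial ribosomal protein genes in the same classes had medians of 1.11 (23 genes), 0.59 (29 genes), 0.41 (16 genes) and 0.60 (9 genes). Up to 2000 bases their medians were thus close to those of other genes of their length. Up to 1000 bases, 23 of 23 were higher in replicate 3, where 93.4% of protein-coding genes were. From 1000 to 2000 bases, 28 of 29 were, beside 75.6%. Above 2000 bases, 21 of 25 were higher in replicate 3 where 35.1% of protein-coding genes were, with medians of 0.57 and -0.27. Mrps26 (longest transcript 4278 bases, log2 ratio 1.12), Mrpl51 (3427 bases, 1.08) and Mrpl17 (7300 bases, 0.73) were such long genes and were named after their values were seen. The ratio also went with GC content, with r = 0.49 across the 77 genes and 0.43 across 14098 protein-coding genes.

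When the dependence on exonic length and GC content, fitted as a smooth curve over all genes, was removed, the median log2 ratio in replicate 3 was 0.49 and 69 of the 77 genes lay above 0, where 50.9% of all genes did. With the length of the longest transcript in its place, a choice made after the data were seen, it was 0.24 and 56 genes lay above 0, where 50.3% of protein-coding genes did. That second curve was fitted over 14098 protein-coding genes and the first over 17101 genes of all types, so length measure and gene set changed together. The ratio of Mrpl12 went from 1.25 to 0.60 with the first curve and to 0.48 with the second. That of Mrpl34 went from 1.11 to 0.09 and to -0.18. The median ratio in replicate 3 was thus 0.73 as measured and 0.24 to 0.49 once length and GC content were taken into account. With the first curve, replicate 1 moved from -0.55 to -0.35 and replicate 2 from -0.18 to -0.12. Above 0 lay 8 genes in replicate 1 and 17 in replicate 2, where 48.8 and 51.5% of all genes did. With replicate 3 alone on its side, transcript length, GC content, cell makeup and any difference of the embryo itself cannot be told apart.

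**Figure D4:**
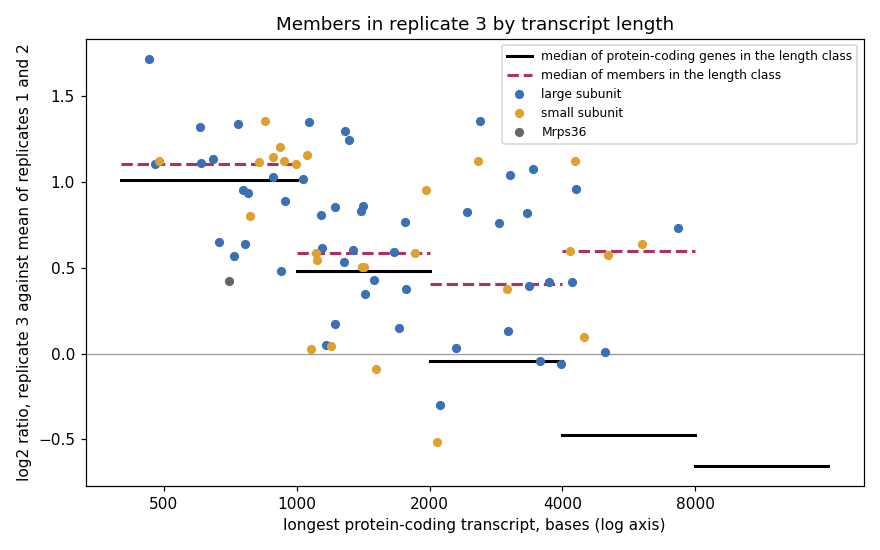
Log2 ratio of replicate 3 to the mean of replicates 1 and 2 (vertical axis) against the longest protein-coding transcript in bases (log axis), 1 point per gene, with medians of protein-coding genes (solid) and of the plotted genes (dashed) in each length class. The dashed lines stay between 0.41 and 1.11, while the solid lines of the same classes fall from 1.01 to -0.48. The solid line at -0.65 is the class above 8000 bases, which holds 0 of the plotted genes.

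The divergent neighbours gave a comparison at a single locus, although a pair can share bases as well as a promoter region. Mrpl46 and Mrps11 had log2 ratios of 0.81 and 1.16 in replicate 3. Mrpl36 had 0.48 and Ndufs6 1.35. Mrpl49 stood at 27.7, 30.8 and 37.9 CPM per kb, whereas Fau, a cytoplasmic ribosomal protein gene whose start lies 59 bases away, stood at 434, 563 and 1532. Mrpl51 had a ratio of 1.08 beside 0.01 for Ncapd2, a condensin subunit. Mrpl18 had 0.17 beside -0.29 for Tcp1, a chaperonin subunit. Other pairs lay close, such as Mrpl32 with 0.13 and Psma2, a proteasome subunit, with 0.19, or Mrps27 with 0.58 and Ptcd2 with 0.38. These pairs were named after their values were seen. All ratios of pairs are as measured. With the trend on exonic length and GC content removed, Mrpl18 turned to -0.20 and Mrpl36 to -0.0001. Mrpl32 moved up to 0.60 and Mrpl51 to 1.37.

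The 5 ribosome subunits whose genes carry other names lay in the range of the named ones. Chchd1 stood at 58.1, 73.7 and 132 CPM per kb, Aurkaip1 at 31.7, 40.3 and 79.9, and Gadd45gip1 at 16.6, 21.2 and 47.0. Dap3, a small-subunit GTP-binding protein, averaged 17.8 ± 4.63 CPM per kb. Ptcd3, a pentatricopeptide-repeat protein of the small subunit, stood at 19.0, 18.6 and 17.8. The first 4 were lowest in replicate 1 and highest in replicate 3, and Ptcd3 was the exception. All 5 were beyond counting noise, where 81.5% of all genes tested were, 4 of them higher and 1 lower in replicate 3. Their median log2 ratio was 1.01 as measured, and 0.59 and 0.29 without the trends on exonic length and on the longest transcript. With either trend removed all 5 lay above 0, and Ptcd3 turned from -0.08 to 0.51 with the exonic-length trend.

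Genes that build or serve the mitochondrial ribosome were described in the same way, and no difference between lists was tested. Over all genes tested, 81.5% were beyond counting noise, 6721 higher and 7230 lower in replicate 3. Of 25 genes for ribosome assembly and rRNA modification, 19 were beyond counting noise, 14 of them higher and 5 lower in replicate 3, with a median log2 ratio of 0.21. Without the trend on length and GC content that median was 0.25 with exonic length and 0.13 with the longest transcript. They ranged from Dhx30, an RNA helicase, at 18.4 CPM per kb to Trmt61b, an RNA methyltransferase, at 1.24. Of 13 translation factors, 8 were beyond noise, 4 in each direction, with a median of 0.12 as measured and of 0.22 and 0.06 without those trends. Tufm, the mitochondrial elongation factor Tu, led them at 99.9 CPM per kb, and Mtif3, an initiation factor, was lowest at 1.75. Of 15 genes of mitochondrial transcription and RNA handling, 14 were beyond noise, 7 in each direction, with a median of -0.01 as measured and of -0.03 and 0.05 without the trends. They ranged from Hsd17b10, a subunit of mitochondrial RNase P, at 107 CPM per kb to Mtpap, the mitochondrial poly(A) polymerase, at 4.97.

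All 22 genes that charge mitochondrial transfer RNAs were beyond counting noise, where 81.5% of all genes tested were, 14 of them higher and 8 lower in replicate 3. They are aminoacyl-tRNA synthetases and Gatb, Gatc and Qrsl1, subunits of the amidotransferase that completes glutaminyl-tRNA. Their median log2 ratio was 0.31, and 0.20 and 0.24 without the trends on exonic length and on the longest transcript, the latter beside 0.24 for the ribosomal protein genes. Gars, which serves both cytoplasm and mitochondria, was highest at 98.2 CPM per kb and Mars2 lowest at 1.66.

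Known regulators of nuclear mitochondrial genes had a median log2 ratio near 0 in replicate 3. Of 12, 9 were beyond noise, where 81.5% of all genes tested were, 2 higher and 7 lower. The median was -0.09 as measured but turned to 0.08 and 0.11 without the trends on exonic length and on the longest transcript, with 6 and 8 of 12 above 0. Their longest transcripts had a median of 3620 bases. Gabpa, the DNA-binding subunit of GABP, had 3399, 2506 and 1345 counts, with replicate 3 the lowest, and its partner Gabpb1 had 3355, 2990 and 2523. Nrf1 had 3594, 3685 and 3691 counts. With the trend on exonic length and GC content removed, the log2 ratio in replicate 3 stayed below 0 for Gabpa (-1.14 as measured, -0.60 after) but turned from -0.35 to 0.17 for Gabpb1 and moved from -0.0031 to 0.61 for Nrf1. Yy1 had 6827, 5781 and 5016 counts. Myc and Mycn, which drive growth genes, had log2 ratios of -0.69 and -0.40 in replicate 3, and Pprc1 had -0.17. With the trend on exonic length and GC content removed, Myc was at -0.98, Mycn at -0.68 and Pprc1 at -0.25. Atf4, a stress-response factor, was at 0.72 and the nuclear receptor Esrra at 0.50 as measured. They were the only 2 of the list that were beyond noise and higher in replicate 3. With the same trend removed Atf4 was at 0.27 and Esrra at 0.59. The coactivators Ppargc1a (32, 18 and 26 counts) and Ppargc1b (72, 47 and 74), and Tfe3, were within counting noise.

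The mitochondrial ribosomal protein genes, with their median of 21.5 CPM per kb, were below both of the other large sets of nuclear genes compared. Cytoplasmic ribosomal protein genes had a median of 381 CPM per kb and nuclear genes of the respiratory chain and ATP synthase of 50.5, lists that were both taken by name and hold some tissue-specific copies. Their median log2 ratios in replicate 3 were 1.17 and 1.01, and 0.76 and 0.55 after removal of the trend on exonic length and GC content. With the trend on the longest transcript they were 0.37 and 0.23. All of the 81 cytoplasmic genes tested and 75 of the 81 respiratory chain and ATP synthase genes were higher in replicate 3, where 48.7% of all genes tested were. Both lists are short, however, with median longest transcripts of 937 and 850 bases, and 93.4% of protein-coding genes of up to 1000 bases were higher there.

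The 13 protein genes of mitochondrial DNA, whose messages this ribosome translates, differed most in replicate 1. They summed to 11108, 42428 and 39984 CPM, and replicate 1 was the lowest library for 13 of 13, while 8 were highest in replicate 3 and 5 in replicate 2. Their median log2 ratios were -2.17, 0.93 and 1.23. Mean levels of these genes ran from 2.22 CPM for mt-Nd4l to 14507 CPM for mt-Co1, so the sum rests mainly on the highest. Records aligned to more than 1 place made up 3.08, 4.77 and 5.19% in replicates 1, 2 and 3, and their part was not tested. The ribosomal RNAs of the mitochondrial ribosome, mt-Rnr1 and mt-Rnr2, stood at 117, 419 and 896 CPM and at 177, 618 and 1140 CPM. In the median ratios, replicate 2 was near replicate 3 for the protein genes of mitochondrial DNA and nearer to replicate 1 for the nuclear ribosomal protein genes.

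**Figure D5:**
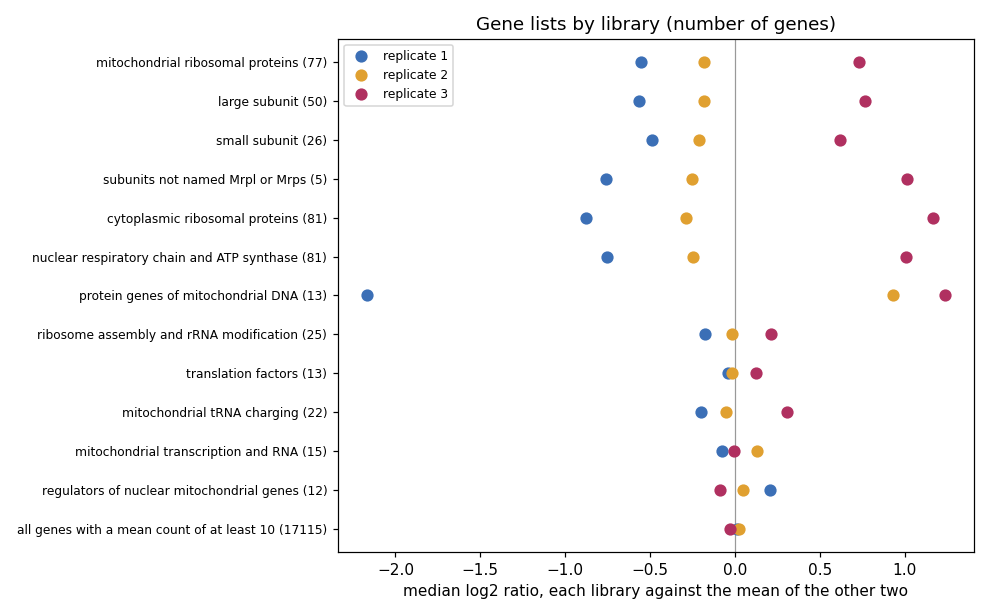
Median log2 ratio of each library against the mean of the others (horizontal axis) for gene lists, with the number of genes tested in parentheses and 1 point per library. Mitochondrial ribosomal protein genes lie at -0.55, -0.18 and 0.73, and protein genes of mitochondrial DNA at -2.17, 0.93 and 1.23.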

How the data were processed

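RNA of 3 samples of 1 genotype had been sequenced. The deposited values were raw counts per gene that the authors made with STAR 2.7.3a and HTSeq 0.12.4 on mm10, per the submitters' processing notes. The annotation release and the strand setting are not given in the sources used here. Records on no single gene made up 14.2 to 16.4% and were left out of library sizes. Gene IDs were matched to GENCODE M21 (55141 of 55401). Counts were scaled by TMM (edgeR 4.0.16) to CPM, and log2 values used a prior count of 2. Genes averaging 10 or more counts entered a chi-square test with 2 degrees of freedom, adjusted by Benjamini-Hochberg, an edgeR dispersion model without covariates and ratios of 1 library to the mean of the others. Trends were removed with mgcv 1.9.3. DESeq2 1.42.0 was an alternative. The steps were tested on simulated data. With 1 genotype there was no contrast between groups.

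Named genes were the 5 highest and 5 lowest of each subunit, the 5 with the largest and the smallest ratio between libraries, those with at least 10% of exonic bases shared, the S18 paralogues, Mrpl12, Mrps36, Mrps30, Mrpl23, the subunits with other names, the extremes of the other lists, the regulators and Dlx2. Genes named outside this rule were chosen after their values were seen, apart from those whose promoters are printed as examples of a motif. The genes and lists were chosen with earlier results of these data known. Of the listed names, 13 of 14 translation factors and 15 of 16 transcription and RNA genes were found. Alternatives changed scaling, filter, prior count, length measure, shared bases and the libraries used.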

Additional observations from a re-analysis of the deposited data

How the results depend on the processing

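Of 61 alternatives over 9 results, 55 stayed in direction and within the replicate spread or 1.5 times a count, 5 moved and 1 reversed. For the sum and the ratios, leaving out 1 library could hardly exceed that spread, which was computed from the same libraries. The spread of the coefficient of variation was taken from its leave-one-out values themselves. Those alternatives therefore give ranges and no check of stability. Per kb of the longest protein-coding transcript, the median level was 33.9 CPM per kb in place of 21.5, and the SD of log2 level 1.24 in place of 1.37. Removing the trend on exonic length and GC content lowered the median log2 ratio of replicate 3 from 0.73 to 0.49, and the trend on the longest transcript, added after seeing the data, to 0.24. Leaving out 1 library at a time gave median levels of 19.2 to 22.9 CPM per kb, sums of 3709 to 4808 CPM, an SD of 1.33 to 1.39, 60 to 72 genes beyond counting noise, and a median coefficient of variation of 0.135 (without replicate 3) to 0.367. The median log2 ratio ranged from -0.88 to -0.24 for replicate 1, from -0.57 to 0.24 for replicate 2, where it reversed without replicate 3, and from 0.57 to 0.88 for replicate 3. Levels per unshared base, also added after seeing the data, moved neither the median level nor the SD by more than that spread. The causes were not tested. Mrpl53 was the 1 gene at no more than 3 counts in every library. Depth limits statements on genes near 3 counts, about 0.08 CPM. No paired analysis was possible because all libraries belong to 1 group.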

Other observations

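Lars2, the mitochondrial leucyl-tRNA synthetase, had 2355, 2150 and 8456 counts and a log2 ratio of 1.89 in replicate 3. It was named after its values were seen. Mars2, the methionyl counterpart, had 926, 756 and 419 counts and a log2 ratio of -1.02. With the trend on exonic length and GC content removed, the ratios were 2.23 for Lars2 and -0.21 for Mars2.

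The annotation also holds 5 processed pseudogenes with names of the same kind, which the choice of protein-coding genes left out. Mrpl23-ps1 had 23, 16 and 56 counts, beside 1234, 1418 and 3399 for Mrpl23, and none of the other 4 had more than 8 counts in any library. Reads that a pseudogene shares with its parent gene may be set aside or split, so the values of Mrpl23, Mrpl48 and Mrps36 carry that uncertainty.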
